A study of Mus musculus with 16 samples.

Results

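The 10 genes described here encode proteins of T cells and cytotoxic lymphocytes: Cd3d, Cd3e, Cd3g, Nkg7, Gzma, Gzmb, Prf1, Bcl11b, Tnfrsf25 and Thy1. They were taken by gene symbol from the platform annotation, which gave 12 probes of the 25697 on the array, out of 16593 named genes. The genes were chosen after their femur values had been seen, with attention to Bcl11b and Tnfrsf25 lying on the opposite side from Cd3d and Nkg7. Their femur difference between genotypes is therefore a description with no test.

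The mice were 8 males of inbred strain C3HeB/FeJ, all 17 weeks old, and RNA of their femur and white adipose tissue was hybridized to 16 Illumina bead arrays. The 4 mutant mice belonged to AEA001, a line made with the chemical mutagen ENU that carries a mutation in Ednra, the endothelin receptor type A gene, and is described as an osteoporosis model. The 4 control mice were wild type, and no treatment is named for either genotype. Every tissue and genotype was represented by 4 arrays, 1 per mouse. The labels do not say whether the mutants carry 1 or 2 mutant alleles or further ENU changes. They give 7 mouse identifiers for 8 mice, because wild type replicate 3 and mutant replicate 4 share 1. P-values measure the spread between these samples as labelled.

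CD3 delta, epsilon and gamma chains pair with the T cell receptor and carry its signal into the cell. Killer cells store perforin, which opens pores in a target membrane, and granzymes, proteases that enter through them, in granules whose membrane also holds Nkg7. Bone marrow, which femur RNA includes, makes lymphoid precursors and holds mature lymphocytes, while adipose tissue holds resident lymphocytes of its own.

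Promoter sequences are shown for the genes that lay on opposite sides in femur, Cd3d and Nkg7 against Bcl11b and Tnfrsf25, so that their start regions can be read beside the values. Each is the 250 bases before a transcript start that the RefSeq table of GRCm38.p6 gives for the gene, 5′ to 3′ on the gene's strand. They lie at chr9:44981536-44981785 (plus strand, Cd3d), chr7:43436888-43437137 (plus, Nkg7), chr12:108003415-108003664 (minus, Bcl11b) and chr4:152115684-152115933 (plus, the upstream of 2 windows for Tnfrsf25). For Cd3d, Bcl11b and Tnfrsf25 the gene span given below begins upstream of the start used, so part or all of the window lies inside the span. Capitals mark matches on either strand to the motifs searched. The core searched for RUNX factors was TGTGGT, and that for the TCF and LEF factors of early T cells was CTTTGA. The ETS family was represented by AGGAAG, and the GATA family, which includes a T helper factor, by AGATAA. No match shown overlaps another.
Cd3d: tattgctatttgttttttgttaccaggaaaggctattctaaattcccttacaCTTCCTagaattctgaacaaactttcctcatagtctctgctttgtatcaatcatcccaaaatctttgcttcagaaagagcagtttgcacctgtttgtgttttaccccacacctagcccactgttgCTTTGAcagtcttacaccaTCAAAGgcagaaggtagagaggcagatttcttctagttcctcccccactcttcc
Nkg7: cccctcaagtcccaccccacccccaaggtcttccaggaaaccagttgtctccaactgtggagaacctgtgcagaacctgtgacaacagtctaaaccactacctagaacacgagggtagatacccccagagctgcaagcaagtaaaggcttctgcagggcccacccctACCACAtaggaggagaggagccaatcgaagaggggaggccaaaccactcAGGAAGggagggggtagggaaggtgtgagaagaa
Bcl11b: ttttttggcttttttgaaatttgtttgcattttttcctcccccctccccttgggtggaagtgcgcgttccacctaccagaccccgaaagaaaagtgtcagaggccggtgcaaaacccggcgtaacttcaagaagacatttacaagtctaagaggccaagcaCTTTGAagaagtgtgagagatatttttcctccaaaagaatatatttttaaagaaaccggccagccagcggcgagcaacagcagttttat
Tnfrsf25: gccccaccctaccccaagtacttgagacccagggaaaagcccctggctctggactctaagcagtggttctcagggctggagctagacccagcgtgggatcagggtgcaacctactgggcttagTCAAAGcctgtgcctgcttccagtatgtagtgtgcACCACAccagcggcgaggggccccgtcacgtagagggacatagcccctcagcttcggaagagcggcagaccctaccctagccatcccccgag

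The Cd3d window held 2 matches to the TCF and LEF motif and 1 to the ETS motif, and the Nkg7 window held 1 RUNX and 1 ETS match. The Bcl11b window held 1 TCF and LEF match. The Tnfrsf25 window shown held 1 RUNX match and 1 TCF and LEF match, and its second window, not shown, held 1 ETS match. Of the 9 member genes with a window, 5 held RUNX, 3 held TCF and LEF, 5 held ETS and 1 held GATA. Among 32851 windows of the same length, the shares were 14.0% for RUNX, 13.8% for TCF and LEF, 29.5% for ETS and 9.99% for GATA. A match describes letters in this window and is neither a binding site nor a cause. The 3 CD3 genes lie together on chromosome 9, and 1355 bases separate the starts used for Cd3g and Cd3d, which run in opposite directions.

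Values are the authors' normalized intensities on a linear scale, on which a dim probe can fall below 0. For differences, intensities under 16 were set to 16 and taken to log2. A probe counted as measured where at least 4 of the 8 arrays of a tissue were above 16. By this rule 8 of the 12 member probes, from 8 genes, were measured in femur. White adipose tissue had 7, with Bcl11b dropping out. The granzyme probes stayed below 16 on all 16 arrays, Gzma (granzyme A) between -7.26 and 14.0 and Gzmb (granzyme B) between -18.3 and 3.01. A second probe of Prf1 ran from -4.74 to 13.2 and a second probe of Tnfrsf25 from -7.11 to 9.73. These 4 probes have no measured level and enter no difference, so Prf1 and Tnfrsf25 each rest on 1 probe.

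Several defining lymphocyte markers were at background. Cd4 and Cd8a, the co-receptors that divide mature T cells into helper and cytotoxic lineages, were at or below 16 on all 16 arrays. Cd247, the zeta chain of the receptor complex, ran from 23.6 to 58.6 in femur by its brightest probe there. Of 28 T cell surface and signalling genes with a probe, other than the members, 14 exceeded 16 on every wild-type femur array and 10 on none. In wild-type white adipose tissue 4 did so on every array and 18 on none. Among natural killer (NK) genes, Ncr1, Klra4, Klra7 and Sh2d1b1 were at or below 16 on every array. The members are for that reason called by their genes, and no cell population is named from them.

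Some arrays stood apart. White adipose mutant replicate 2 held transcripts of bone, with Bglap (osteocalcin) at 242 against -12.2 to -2.03 on the other white adipose arrays, and S100a8 (a neutrophil protein) at 9828 against 424 to 1485. White adipose wild type replicates 1 and 2 had the highest summed intensities of 9 macrophage genes, 35391 and 27818, against 13110 to 21716 on the other white adipose arrays. The same 2 arrays had the highest sums over T cell surface genes, 869 and 759 against 365 to 453 elsewhere in that tissue, and over NK genes, 1202 and 1163 against 489 to 568, or 351 and 339 against 214 to 260 without Tyrobp, an adaptor shared with myeloid cells. The T cell surface sum includes Il7r, whose wide wild-type range is given below, and was not taken without it. Of the CD3 chains on these 2 arrays, Cd3d and Cd3g lay between the other wild-type values. Cd3e was lowest there among wild-type mice, at 20.5 and 22.9. In femur, wild type replicate 3 had the highest macrophage sum of its group, 28906 against 17630 to 24486, near the mutants at 29778 to 31908.

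In femur the members did not move as a block. Nkg7 and Cd3d were higher in every mutant than in any wild-type mouse. Tnfrsf25 and Bcl11b were lower in every mutant than in any wild-type mouse, Prf1 was lower in 3 of 4, and Cd3e, Cd3g and Thy1 overlapped. Over all 14281 probes measured in femur, 9.37% had groups that did not overlap, 4.38% higher and 4.99% lower in mutants. Of the 8 measured members, 3 had a difference above 0 and 5 below, against 47.1% and 52.9% of all probes. The members were picked on this contrast, so nothing is read from these counts. In whole tissue, fewer cells of a type and less RNA per cell cannot be told apart.

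**Figure D1:**
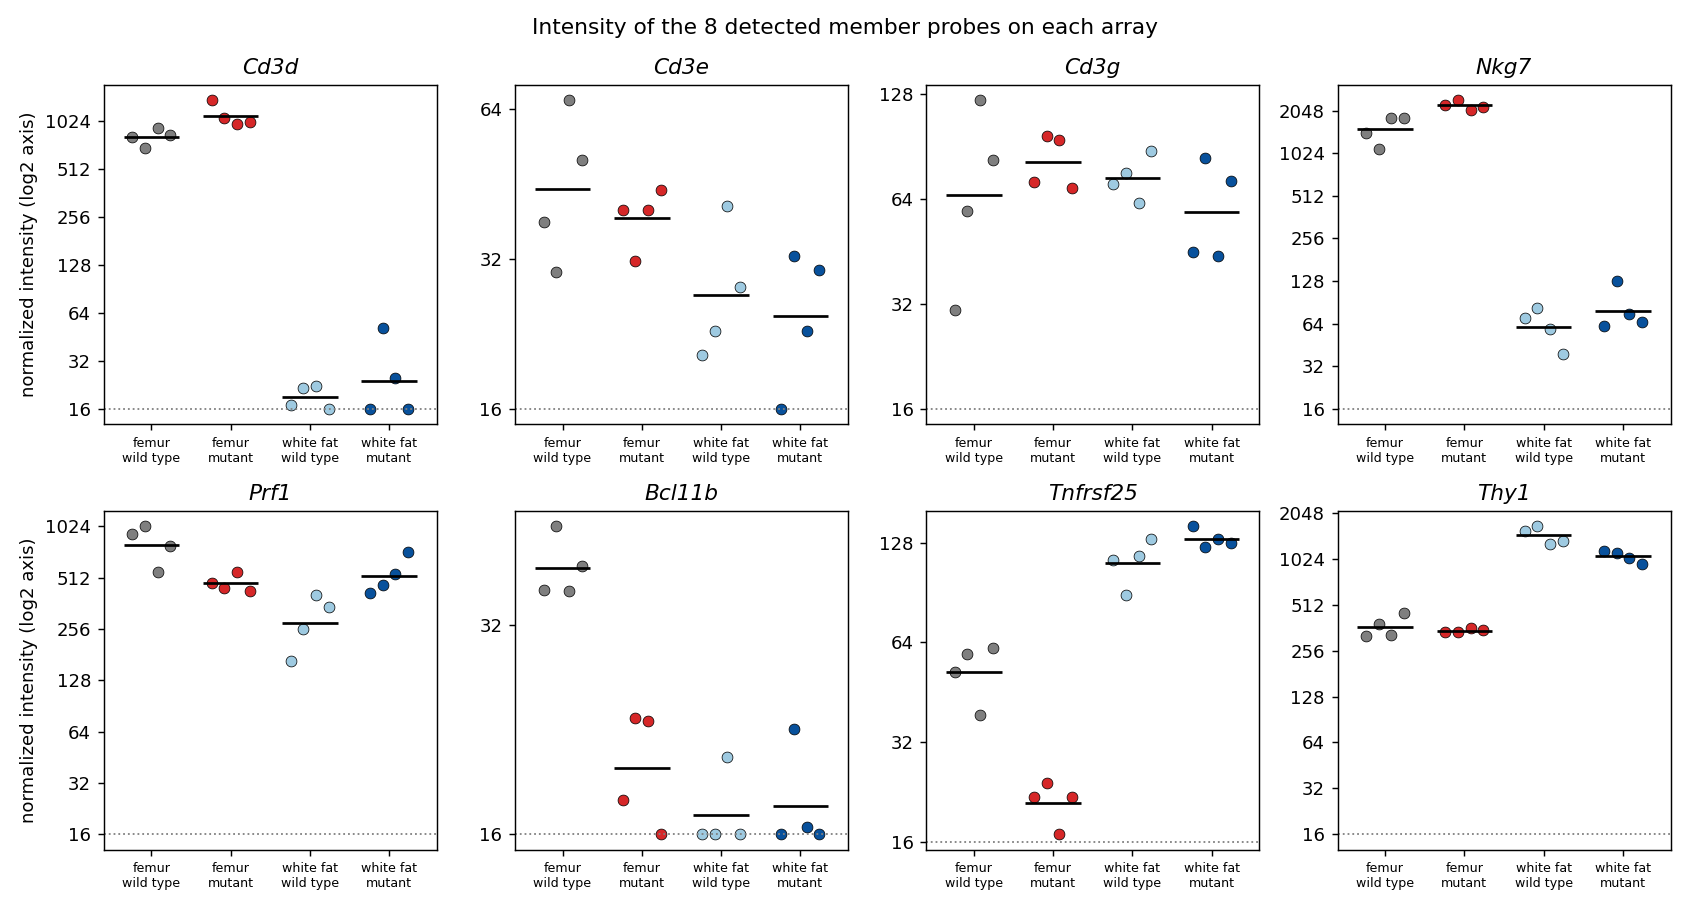
Normalized intensity (log2 axis, values under 16 drawn at 16, dotted line) of the 8 measured member probes on each array, 4 arrays per group, with the bar at the mean of the log2 values. Nkg7 and Cd3d sit higher in mutant than wild-type femur and far lower in white adipose tissue, Tnfrsf25 and Bcl11b sit lower in mutant femur, and each panel has its own axis.

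Among the CD3 chains, Cd3d (chr9:44981769-44987052) had femur intensities of 819, 693, 923 and 843 in the wild-type mice and 1385, 1080, 979 and 1016 in the mutants. The lowest mutant lay just above the highest wild-type mouse, which was replicate 3. The mutant mean was 0.44 ± 0.14 higher on the log2 scale (limma's SE, n = 4 per genotype), or 1.35-fold.

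Cd3g (chr9:44969572-44980431), whose start lies next to that of Cd3d, gave 30.6, 58.8, 122 and 82.8 in wild-type femur and 71.5, 96.9, 93.9 and 68.5 in mutant femur. The wild-type values enclosed all 4 mutant values, and the log2 difference of 0.32 ± 0.37 turned to -0.043 without wild type replicate 1. Cd3e (chr9:44998735-45009663), the chain on which many T cell antibodies act, gave 38.0, 30.1, 66.8 and 50.6 in wild-type and 40.1, 31.7, 40.2 and 44.0 in mutant femur. The groups overlapped fully at a log2 difference of -0.19 ± 0.23, which was 0.0020 without wild type replicate 3. Of the 3 chains, Cd3d alone had groups that separated in femur.

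Among the cytotoxic genes, Nkg7 (chr7:43437138-43438246) gave femur intensities of 1427, 1096, 1832 and 1821 in wild-type mice and 2237, 2427, 2086 and 2189 in mutants. All mutants lay above all wild-type mice, and the mutants spanned the narrower range. The log2 difference was 0.56 ± 0.17, or 1.48-fold. Prf1 (perforin, chr10:61297751-61304684) gave 927, 1029, 551 and 787 in wild-type and 476, 448, 551 and 431 in mutant femur. Wild type replicate 3 and mutant replicate 3 were near-equal, and the other mutants lay below all wild-type mice. The mutant mean was lower by a log2 difference of -0.76 ± 0.19, or 1.69-fold, so the 2 measured genes of the killing machinery lay on opposite sides.

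Bcl11b (chr12:107910403-108004145) encodes a zinc finger factor that commits precursors to the T cell lineage. Its femur intensities were 35.9, 44.4, 35.8 and 38.9 in wild-type mice and 17.9, 23.5, 23.3 and 14.6 in mutants. All mutants lay below all wild-type mice, and the lowest mutant was under 16. The log2 difference was -0.95 ± 0.15, or 1.94-fold lower, and shrank to -0.27 with a floor of 32.

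Tnfrsf25 (chr4:152115528-152120119) encodes a death domain receptor of T cells that binds the ligand Tnfsf15. Femur intensities were 52.1, 58.9, 38.6 and 61.4 in wild-type mice and 21.8, 24.0, 16.8 and 21.8 in mutants. Every mutant lay below every wild-type mouse, and the mutants approached the floor of 16. The log2 difference was -1.31 ± 0.17, or 2.48-fold lower, and -0.70 with a floor of 32. All 8 femur values were above 16, so the floor used did not act on them.

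Thy1 (chr9:44043384-44048579), a surface glycoprotein of mouse T cells that fibroblasts and other stromal cells carry too, gave 317, 380, 323 and 453 in wild-type femur. The mutants gave 339, 339, 358 and 347, inside the wild-type range, at a log2 difference of -0.07 ± 0.12. That difference was 0.030 without wild type replicate 4.

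White adipose tissue of the same mice was not used to choose the members, and there the genotypes were tested. None of the 7 measured member probes passed a limma adjusted p of 0.05, and 2 did at an unadjusted p of 0.05. Over all 14342 probes measured there, 0.0139% passed the adjusted threshold and 26.1% the unadjusted one. The 2 were Thy1, lower in mutants, and Prf1, higher in mutants, and both had groups that did not overlap, as did 15.7% of all probes.

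Thy1 intensities were 1550, 1674, 1275 and 1345 in wild-type and 1158, 1110, 1039 and 940 in mutant white adipose tissue. Every mutant lay below every wild-type mouse, with wild type replicates 1 and 2 highest. The log2 difference was -0.46 ± 0.12 (95% interval -0.72 to -0.19, limma adjusted p = 0.112). Of 9 fibroblast and stroma genes measured there, 1 was higher and 4 lower in mutants at an unadjusted limma p of 0.05, beside 25.5% of all genes. Their part in the Thy1 difference was not tested. Prf1 gave 165, 257, 406 and 345 in wild-type and 418, 463, 536 and 722 in mutant white adipose tissue. Every mutant lay above every wild-type mouse, with wild type replicates 1 and 2 lowest. The log2 difference was 0.91 ± 0.29 (95% interval 0.26 to 1.57, limma adjusted p = 0.123), or 1.88-fold. Without wild type replicates 1 and 2, which left 2 wild-type arrays, the differences were -0.31 for Thy1 (adjusted p = 0.517) and 0.48 for Prf1 (adjusted p = 0.536). The arrays left out were the wild-type ones farthest from the mutants for both genes, so both differences had to shrink. In 1 limma fit of all 16 arrays, which pools the spread of both tissues, both passed, with adjusted p = 0.0359 for Thy1 and 0.0412 for Prf1, beside 8.27% of all probes, or 7.63% where that fit was restricted to probes measured in both tissues.

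Tnfrsf25 gave 113, 88.7, 116 and 131 in wild-type and 144, 124, 131 and 128 in mutant white adipose tissue. The groups overlapped, and the log2 difference was 0.24 ± 0.13 (95% interval -0.05 to 0.53, limma adjusted p = 0.258). In femur the same probe had been 2.48-fold lower in mutants. Nkg7 gave 69.5, 82.2, 58.9 and 39.1 in wild-type and 61.8, 129, 74.2 and 65.2 in mutant white adipose tissue. Its highest value was on mutant replicate 2, the array with bone transcripts, and the log2 difference of 0.39 ± 0.29 had a limma adjusted p of 0.405.

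The CD3 chains were dim in white adipose tissue. Cd3d gave 16.8, 21.5, 22.3 and 13.6 in wild-type mice and 12.02, 51.0, 24.9 and 6.51 in mutants, again with its highest value on mutant replicate 2. Its log2 difference of 0.33 ± 0.35 (limma adjusted p = 0.556) was -0.031 without that array. Cd3g ran from 62.1 to 87.7 in wild-type mice and from 43.7 to 83.7 in mutants, at -0.32 ± 0.23 (adjusted p = 0.380). Cd3e ran from 20.5 to 40.9 and from 9.97 to 32.5, at -0.14 ± 0.28 (adjusted p = 0.758). Bcl11b was at or below 16 on 5 of the 8 arrays and was not tested there.

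**Figure D2:**
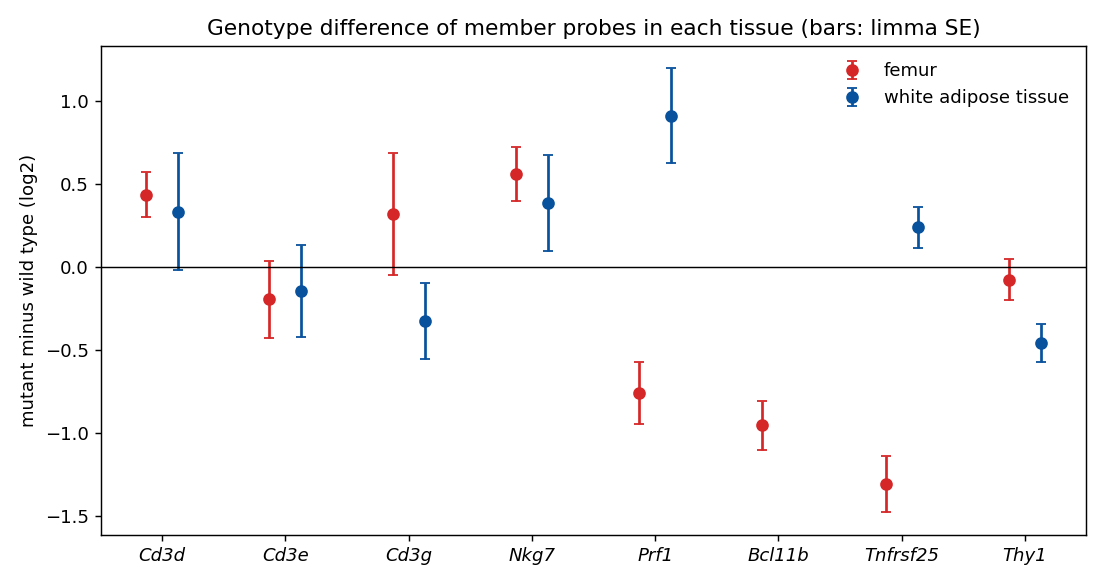
Mutant minus wild type difference (log2) of each measured member probe in femur (red) and white adipose tissue (blue), with limma's SE as bars, 4 arrays per genotype. Prf1 and Tnfrsf25 lie below 0 in femur (-0.76 and -1.31) and above 0 in white adipose tissue (0.91 and 0.24). Cd3g lies above 0 in femur (0.32) and below 0 in white adipose tissue (-0.32), and Bcl11b has no white adipose value.

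Femur and white adipose tissue were compared with both genotypes averaged. The average takes in the femur values after which the members were chosen, so the difference within 1 genotype is given where it departs from it. Such a difference holds the femur values of its genotype, so its p-value is not taken as support. Of the 7 members measured in both tissues, 6 passed a limma adjusted p of 0.05, 4 higher and 2 lower in femur. Among the 12882 probes measured in both tissues, 79.6% passed, 35.9% higher and 43.7% lower in femur. Bcl11b was kept only through its femur arrays, which fixes its direction, so it is left out of this count. Because both tissues were normalized together, these are differences relative to the other transcripts of each tissue.

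Cd3d was higher in femur by 5.48 ± 0.21 on the log2 scale (limma adjusted p = 6.7e-13), or 44.6-fold with 3 of the 8 white adipose arrays set to the floor. Nkg7 was higher by 4.74 ± 0.18 (adjusted p = 7.3e-13), or 26.7-fold, with all 16 arrays above the floor. Every femur value of both genes lay above every white adipose value. Prf1 was higher in femur by 0.69 ± 0.18 (limma adjusted p = 0.0028). With the animal as a fixed block its adjusted p was 0.0807. The Prf1 difference was 1.53 among wild-type mice alone and -0.14 among mutants alone. Cd3e was higher by 0.69 ± 0.20 (limma adjusted p = 0.0057). It did not pass among wild-type mice alone, at 0.71 (adjusted p = 0.0619), and its difference was 0.66 among mutants alone.

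Thy1 and Tnfrsf25 ran the other way. Thy1 was lower in femur, with a log2 difference of -1.80 ± 0.09 (limma adjusted p = 1.5e-11), or 3.49-fold. Tnfrsf25 was lower with a difference of -1.87 ± 0.11 (adjusted p = 2.4e-10). This average takes in its low mutant femur values: the Tnfrsf25 difference was -1.10 among wild-type mice alone and -2.65 among mutants alone. Every white adipose value lay above every femur value for both genes. Cd3g did not pass, at 0.16 ± 0.24 with a 95% interval of -0.36 to 0.67 (adjusted p = 0.564), and was -0.17 among wild-type mice alone. The interval of Cd3g thus lies below that of Cd3d, 5.04 to 5.92.

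**Figure D3:**
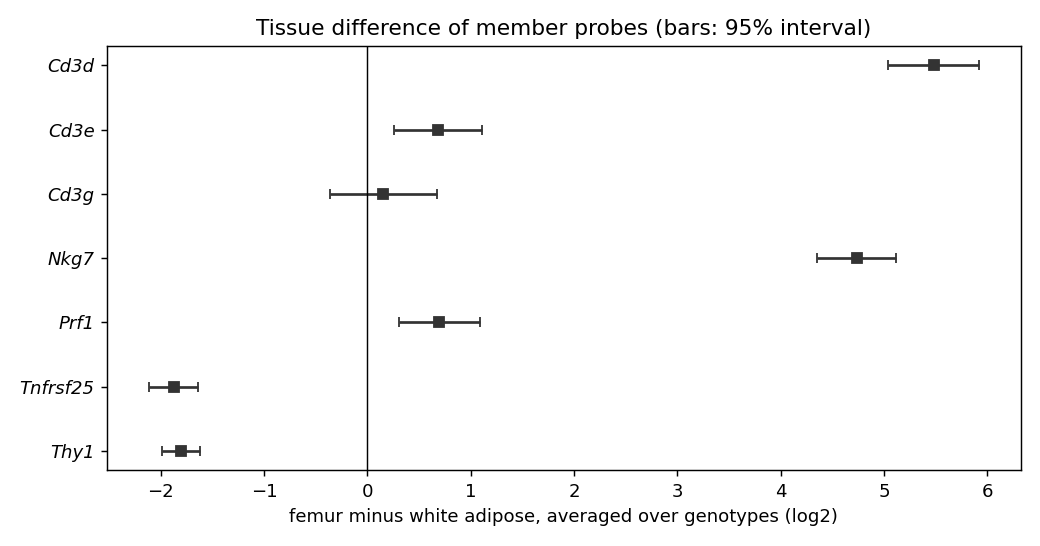
Femur minus white adipose difference (log2, averaged over genotypes) of the 7 member probes measured in both tissues, with 95% intervals from limma on 16 arrays. Cd3d (5.48) and Nkg7 (4.74) stand far to the right, Thy1 (-1.80) and Tnfrsf25 (-1.87) lie left of 0, and the interval of Cd3g crosses 0.

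Other genes of the same pathways were read from lists. No gene of these lists passed a limma adjusted p of 0.05 between genotypes in femur or white adipose tissue, and over all genes by brightest probe the count was also 0, of 9789 in femur and 9878 in white adipose tissue. Counted by probe, 0.00700% passed in femur. The unadjusted p of 0.05 was passed by 15.7% of all genes in femur, 6.53% higher and 9.17% lower in mutants, and by 25.5% in white adipose tissue. Over all genes the median difference was -0.03 for femur and 0.03 for white adipose tissue.

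Of 17 T cell surface and signalling genes measured in femur, 7 had differences above 0 and 10 below, with a median of -0.06. At the unadjusted threshold 0 were higher and 1 lower. Cd27, a costimulatory receptor, differed by -0.06 ± 0.09 (limma adjusted p = 0.768) and Il7r, the interleukin-7 receptor, by -0.12 ± 0.17 (adjusted p = 0.743). Lat, the scaffold that receptor signals assemble on, had a difference of -0.47 ± 0.22 (adjusted p = 0.311), with wild-type values from 297 to 380 and mutants from 156 to 335. Lcp2, an adaptor that works with Lat, differed by 0.08 ± 0.25 (adjusted p = 0.898), and its other probe had the opposite sign. The summed intensity of the 28 genes was 1898 to 2123 in wild-type and 1680 to 2050 in mutant femur.

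Among 8 measured T cell transcription factors, 3 lay above and 5 below 0 in femur, with a median of -0.08 and none past the unadjusted threshold. Satb1, a chromatin organizer of thymocytes, differed by -0.14 ± 0.10 (limma adjusted p = 0.499) and Ets1 by 0.17 ± 0.09 (adjusted p = 0.375). Bcl11a, the B lineage relative of Bcl11b, differed by -0.18 ± 0.11 (adjusted p = 0.410), and Notch1, whose signal starts T cell commitment, by -0.19 ± 0.19 (adjusted p = 0.643).

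NK receptor genes had a median femur difference of 0.28, with 8 of 10 above 0 and 4 higher at the unadjusted threshold. Tyrobp, a signalling adaptor of NK and myeloid cells, gave 1044 to 2088 in wild-type and 2107 to 3125 in mutant femur, at 0.68 ± 0.23 (limma adjusted p = 0.216). Klrd1, the CD94 lectin receptor, gave 123 to 180 and 202 to 261, at 0.47 ± 0.14 (adjusted p = 0.195). Their groups did not overlap, as was the case, with mutants higher, for 4.38% of all femur probes. Cd226, an activating receptor, differed by 0.41 ± 0.17 (adjusted p = 0.270) and Hcst, the adaptor of Klrk1, by 0.30 ± 0.14 (adjusted p = 0.315). The summed intensity of the 16 NK genes was 2199 to 3351 in wild-type and 3618 to 4670 in mutant femur, with Tyrobp's own values above included. Summed without Tyrobp, a step added after its level was seen, the other 15 genes gave 1155 to 1263 and 1385 to 1643. Beside these sums, 9 of 9 macrophage genes lay above 0 in femur with a median of 0.43, and their part in the NK difference was not tested.

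Of 13 granule and effector genes in femur, 9 lay above 0, with a median of 0.16 and 2 higher at the unadjusted threshold. Srgn, the proteoglycan core on which granule contents are packed, gave 683 to 1084 in wild-type and 1047 to 1527 in mutant femur, at 0.76 ± 0.18 (limma adjusted p = 0.168). Lamp1, Stxbp2 and Rab27a, which act in granule membranes and their release, differed by -0.00 ± 0.09, 0.17 ± 0.10 and 0.10 ± 0.09. Their adjusted p-values were 0.996, 0.407 and 0.607.

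The death receptor group around Tnfrsf25 had 4 of 7 genes above 0 in femur, with a median of 0.21 and 3 higher at the unadjusted threshold. Tnfrsf10b, the mouse receptor for the ligand TRAIL, gave 133 to 193 in wild-type and 206 to 291 in mutant femur, at 0.68 ± 0.15 (limma adjusted p = 0.168). Fas, another death receptor, differed by 0.30 ± 0.10 (adjusted p = 0.218). Casp8, the protease these receptors activate, differed by 0.21 ± 0.11 (adjusted p = 0.368) and its adaptor Fadd by -0.07 ± 0.09 (adjusted p = 0.720). Tnfsf15, the ligand of Tnfrsf25, was at or below 16 on every array.

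These femur counts changed with wild type replicate 3. Without that array 6 list probes passed the limma threshold, all higher in mutants, for Srgn, Tnfrsf10b, Cst7, Fas and, by 2 probes, Tnfrsf1a, beside 5.04% of all probes. Without the pair of mice that share an identifier 4 passed, beside 3.17% of all probes. In 1 fit of all 16 arrays 3 passed, for Il18rap, Srgn and Tnfrsf10b, beside 1.77%, and 0 passed when that fit was restricted to probes measured in both tissues. The number of list probes tested is not given here, so these counts are not read against those shares.

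**Figure D4:**
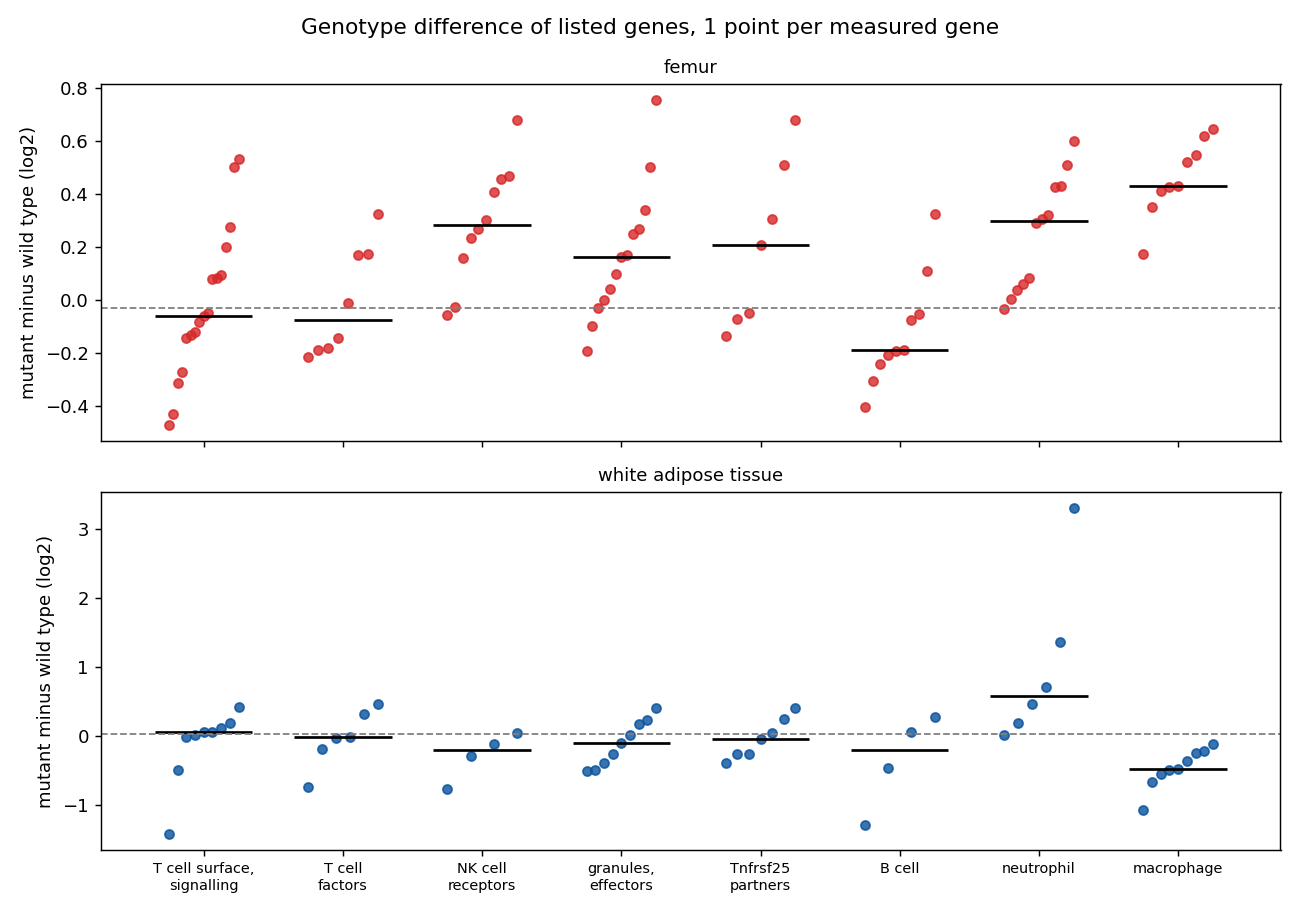
Mutant minus wild type difference (log2) of each measured gene of the pathway and cell type lists, by its brightest probe, in femur (upper) and white adipose tissue (lower), with the list median as a bar and the median of all genes as a dashed line. NK (0.28) and macrophage (0.43) medians lie above the line in femur and below it in white adipose tissue (-0.20 and -0.48), and no gene passed the adjusted threshold. The NK median rests on 10 measured genes in femur and 4 in white adipose tissue.

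In white adipose tissue 6 of 9 T cell surface genes lay above 0, with a median of 0.05. Il7r gave 82.0 to 459 in wild-type mice and 74.5 to 82.9 in mutants, at -1.41 ± 0.53 (limma adjusted p = 0.152), and Cd27 differed by 0.41 ± 0.16 (adjusted p = 0.165). Cd2, an adhesion receptor, differed by -0.50 ± 0.41 (adjusted p = 0.453). Transcription factors, NK genes, granule genes and the Tnfrsf25 group had medians of -0.02, -0.20, -0.10 and -0.05, over 6, 4, 9 and 7 measured genes. Beside these stand the higher T cell surface and NK sums of wild type replicates 1 and 2, whose part in the differences was not tested.

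Among the factors in white adipose tissue, Satb1 differed by 0.46 ± 0.17 (limma adjusted p = 0.145), Ets1 by -0.18 ± 0.09 (adjusted p = 0.218) and Notch1 by 0.31 ± 0.16 (adjusted p = 0.239). Of NK genes, Tyrobp differed by -0.76 ± 0.37 (adjusted p = 0.229), Hcst by -0.28 ± 0.20 (adjusted p = 0.380) and Klrd1 by 0.04 ± 0.26 (adjusted p = 0.933). Of granule genes, Srgn differed by -0.50 ± 0.15 (adjusted p = 0.121), Lamp1 by -0.10 ± 0.10 (adjusted p = 0.528) and Stxbp2 by 0.23 ± 0.08 (adjusted p = 0.131). Around Tnfrsf25, Fas differed by -0.26 ± 0.09 (adjusted p = 0.127), Casp8 by -0.26 ± 0.11 (adjusted p = 0.192) and Tnfrsf1a, the tumour necrosis factor receptor, by -0.39 ± 0.15 (adjusted p = 0.164). Another probe of Fas differed by -0.71 and another of Tnfrsf1a by -0.55. Both passed in the 1 limma fit of all 16 arrays, beside 8.27% of all probes.

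No gene of the other cell type lists passed the adjusted threshold between genotypes in either tissue, and their counts and medians follow. In femur 8 of 9 macrophage genes were higher at the unadjusted threshold, and 11 of 12 neutrophil genes lay above 0, with a median of 0.30. Lyz2, the lysozyme of macrophages and granulocytes, differed by 0.43 ± 0.14 (limma adjusted p = 0.215). B cell genes had 8 of 10 below 0 and a median of -0.19, with Cd79b, a chain of the B cell receptor, at -0.21 ± 0.12 (adjusted p = 0.413) by its brightest probe. Another Cd79b probe had the opposite sign, at 560 to 1122 in wild-type and 808 to 1060 in mutant femur. Erythroid genes had 6 of 7 below 0 and a median of -0.22, and mast cell genes had 8 of 8 above 0 and a median of 0.28. Lymph node stroma and follicle genes had 2 of 4 above 0 (median 0.10) and plasmacytoid dendritic cell genes 1 of 4 (median -0.11). Fibroblast and stroma genes had 4 of 9 above 0 (median -0.03), osteoblast genes 2 of 5 (median -0.08) and adipocyte genes 4 of 6 (median 0.14). In white adipose tissue 9 of 9 macrophage genes lay below 0, with a median of -0.48, and Lyz2 differed by -1.06 ± 0.29 (adjusted p = 0.112). There 6 of 6 neutrophil genes lay above 0, with a median of 0.58, as did 5 of 5 erythroid genes, with a median of 0.54. B cell genes had 2 of 4 above 0 (median -0.20) and mast cell genes 2 of 7 (median -0.01). Lymph node stroma and follicle genes had 4 of 4 above 0 (median 0.28) and plasmacytoid dendritic cell genes 1 of 3 (median -0.02). Fibroblast and stroma genes had 4 of 9 above 0 (median -0.16) and adipocyte genes 5 of 7 (median 0.01). The 1 measured osteoblast gene differed by 0.06. The array of mutant replicate 2 had the highest neutrophil sum of its tissue, 22729 against 2557 to 5240 on the others. The part of these cell types in the members' differences was not tested.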

How the data were processed

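Femur and white adipose RNA of 8 mice was measured on 16 bead arrays, grouped by labelled tissue and genotype. Values were the deposited probe intensity on a linear scale, which the authors made, per the submitters' processing notes, with GenomeStudio 2011.1. No source used here names its background correction or normalization. Array medians lay between 25.2 and 25.3, as after quantile normalization, with 14204 to 14227 probes above 16. A second table, of pre-normalization signals, stayed unused because the names of its 16 sample columns match no label. Of 25697 probes, 23978 had 1 gene, 0 several and 1719 none, and 23962 symbols were matched through RefSeq GRCm38.p6.

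Intensities were floored at 16 and taken to log2. limma 3.58.1 in R 4.3.3 (lmFit, eBayes, two-sided) was fitted over all probes above 16 on at least 4 arrays, adjusting by Benjamini-Hochberg at a threshold of 0.05. Each genotype contrast used the 8 arrays of its tissue. The tissue contrast used all 16 arrays, taking the mouse as random block (consensus correlation -0.0688), since the labels give both tissues of a mouse 1 identifier. Deviations of a mouse's femur and white adipose arrays correlated between -0.24 and 0.03. The fits were tested on simulated data. Figures were drawn with matplotlib 3.10.9.

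The members and gene lists were chosen with earlier results of these data known. The naming rule took all member probes, the 4 (femur) or 3 (white adipose) brightest genes of each pathway list, 2 of each other cell type list, genes past the threshold in the fit of a tissue (none was), and set markers. Of the other cell type genes only Lyz2 and the set markers Cd79b, S100a8 and Bglap are printed, and the set marker Adipoq was left out. Il18rap, Cst7, Tnfrsf1a and the NK genes at background were named after their values were seen. Alternatives covered floor, filter, renormalization, variance model, weights, samples in the fit, blocks, probes per gene and leaving out arrays. The number of arrays limits the precision. Ednra, Lck and other listed genes without a probe here were not analysed here.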

Additional observations from a re-analysis of the deposited data

Results flagged for a closer look

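Prf1 and Tnfrsf25 had genotype differences of opposite sign in the 2 tissues. For Prf1 every mutant femur lay below the wild-type femur mean and every mutant white adipose sample above the wild-type white adipose mean, at log2 differences of -0.76 and 0.91. For Tnfrsf25 the same held, at -1.31 in femur and 0.24 in white adipose tissue. Neither white adipose difference passed, at limma adjusted p = 0.123 for Prf1 and 0.258 for Tnfrsf25, whose groups overlapped there. Cd3g also changed sign, at 0.32 ± 0.37 in femur and -0.32 ± 0.23 in white adipose tissue. Its mutants lay on both sides of the wild-type mean in each tissue. How many of all probes change sign in this way was not counted. The difference between tissues was not tested, since it contains the femur contrast on which the genes were chosen.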

How the results depend on the processing

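No member probe passed in white adipose tissue under any alternative run except 1 fit of all 16 arrays, which gave 2 (Thy1 and Prf1), 3 list probes and 10 of other cell types, where the fits within the tissue gave 0 of each. That fit also gave 3 list probes and 2 of other cell types in femur. Over all probes it called 8.27% in white adipose tissue and 1.77% in femur. Its filter kept probes at the floor in the other tissue. Restricted to probes measured in both tissues, an alternative added after those counts were seen, it gave 2, 3 and 10 in white adipose tissue (adjusted p = 0.0382 for Thy1 and 0.0432 for Prf1), and in femur 0 of each, while all femur calls went from 253 to 38. That restricted fit called 7.63% of all probes in white adipose tissue and 0.295% in femur. Leaving out single arrays gave 0 to 6 list probes and 0 to 8 of other cell types in femur. The 6 and 8 came without wild type replicate 3, beside 5.04% of all probes. Without the pair of mice sharing an identifier 4 and 7 passed, beside 3.17% of all probes. In white adipose tissue these omissions gave 0 throughout. How many list and other cell type probes were tested is not given here, so their counts are not read against the shares of all probes. Leaving out white adipose wild type replicates 1 and 2 together was also chosen after seeing the data. Requiring all arrays above 16 left 5 members to test, of which 4 passed the tissue threshold, against 6 of the 7 measured in both tissues. The sign also turned when single arrays were left out, over ranges of -0.043 to 0.62 for femur Cd3g, -0.38 to 0.0020 for Cd3e and -0.14 to 0.030 for Thy1. In white adipose tissue the ranges were -0.28 to 0.062 for Cd3e and -0.031 to 0.53 for Cd3d, and for the tissue difference of Cd3g -0.035 to 0.33. Wild-type arrays alone gave -0.17 for Cd3g and mutant arrays alone -0.14 for Prf1. The cause was not tested. With the replicate number as a block, 0 member probes passed in white adipose tissue. Wild-type and mutant mice of 1 number share no stated litter or batch, and their deviations correlated between -0.05 and 0.32 there and -0.07 and 0.05 in femur. With the animal as a fixed block 5 of the 7 members measured in both tissues passed, against 6, and Prf1 did not (adjusted p = 0.0807). Dim probes near 16 limit Bcl11b, Tnfrsf25 in femur and Cd3d in white adipose tissue.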
